A study of Mus musculus with 14 samples.

Results

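Dense enhancer clusters were stretches of chromatin in which putative enhancers of iMEF cells followed each other closely. The enhancers were chained wherever the gap to the next was at most 12500 bp, and chains of 5 or more were kept. This gave 730 clusters with 4414 of the 32965 listed enhancers, a share of 13.4% (Wilson 95% CI 13.03 to 13.76). The other enhancers were single (11755) or in 6865 chains of 2 to 4 (16796).

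The libraries came from iMEF cells, immortalised mouse embryo fibroblasts. A lentiviral construct gave them human ASH2L with an N-terminal FKBP12F36V tag, the FKBP-ASH2L fusion, while the endogenous Ash2l alleles had lost exon 4. The study's methods describe the lines as clones, so the cells stand for 1 clonal line and not for fibroblasts from several animals. H3K4me3 ChIP-seq had 12 libraries, 2 each without dTAG and after 30 min, 2 h, 4 h, 8 h and 16 h of dTAG, and there were 2 inputs, 1 untreated and 1 after 16 h. All groups shared the fusion protein and the loss of endogenous Ash2l. The 2 lists analysed hold positions only, namely the H3K4me3 peaks of all libraries together and the enhancers of control cells. They hold no value per sample, so no replicate error and no comparison between times was possible, the lists give no depth for any library, and every value below is a description without a test.

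Enhancers are stretches of DNA that bind transcription factors and act on promoters that may lie far away. Active enhancers carry H3K4me1 and H3K27ac in accessible chromatin, whereas H3K4me3 marks active promoters. Stretches in which many enhancers lie close together are often found near genes for transcription factors, signalling proteins and matrix proteins that are typical of a cell type. A wide H3K4me3 peak over a promoter is known from many such genes.

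To show what the members look like, 1 enhancer of 150 to 300 bp is printed for each of 5 clusters among those with the most enhancers. Among the members of that width only, it is the one with the most AP-1 motifs and, among equals, the narrowest. Sequences are GRCm38.p6 (the mm10 build), plus strand, 5′ to 3′. Capitals mark the AP-1 motif TGAGTCA, bound by FOS and JUN proteins, and the TEAD motif GGAATG, each on either strand.
Member near Rxra, chr2:27763992-27764244, intergenic: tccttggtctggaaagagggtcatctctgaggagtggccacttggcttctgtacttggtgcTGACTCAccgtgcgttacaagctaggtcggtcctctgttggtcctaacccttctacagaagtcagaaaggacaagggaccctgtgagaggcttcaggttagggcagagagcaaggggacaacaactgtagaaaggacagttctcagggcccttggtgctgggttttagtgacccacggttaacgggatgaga
Member near Thbs1, chr2:117917276-117917478, intergenic: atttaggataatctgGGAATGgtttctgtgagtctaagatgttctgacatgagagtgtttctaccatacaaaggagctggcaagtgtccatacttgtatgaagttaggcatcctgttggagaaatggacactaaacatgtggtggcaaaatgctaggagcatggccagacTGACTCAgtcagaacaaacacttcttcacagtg
Member in an intron of Adamtsl3, chr7:82395225-82395404: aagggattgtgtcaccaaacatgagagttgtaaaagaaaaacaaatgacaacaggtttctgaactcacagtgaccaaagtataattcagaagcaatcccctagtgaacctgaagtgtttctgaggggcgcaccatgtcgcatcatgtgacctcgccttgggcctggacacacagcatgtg
Member in an intron of Maml2, chr9:13516335-13516487: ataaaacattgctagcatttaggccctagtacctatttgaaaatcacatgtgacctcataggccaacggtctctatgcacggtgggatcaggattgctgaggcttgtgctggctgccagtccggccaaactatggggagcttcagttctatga
Member near Sntb2, chr8:106929535-106929734, intergenic: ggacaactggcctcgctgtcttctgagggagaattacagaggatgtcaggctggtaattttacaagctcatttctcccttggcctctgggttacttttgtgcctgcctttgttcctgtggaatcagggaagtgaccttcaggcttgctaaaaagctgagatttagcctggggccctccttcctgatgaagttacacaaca
The Rxra and Thbs1 members held 1 AP-1 motif each. The Thbs1 member also held 1 TEAD motif, and the other 3 sequences held neither. Members of other widths in those 3 clusters did hold AP-1. Over members of any width it was in 3 of 16 at Adamtsl3, 4 of 14 at Maml2 and 1 of 14 at Sntb2. The RUNX motif TGTGGTT was in 0 of the 5. They had 42.9 to 53.4% GC and 0 to 5 CpGs, and 0 of the 5 overlapped an H3K4me3 peak.

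Most clusters were just above the limit of 5. There were 382 with 5 enhancers, 172 with 6 and 81 with 7, together 635 of 730 (87.0%, 95% CI 84.4 to 89.2). Only 36 (4.93%) had 10 or more, and the largest 2 had 17 each. The span had a median of 25.6 kb, with quartiles of 19.4 and 32.7 kb and a range of 3.52 to 109 kb. On either side of the limit, chains of 4 had a median span of 15.4 kb and chains of 5 one of 21.2 kb. Summed over clusters the spans came to 19.9 Mb, or 0.732% of the chromosomes.

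**Figure D1:**
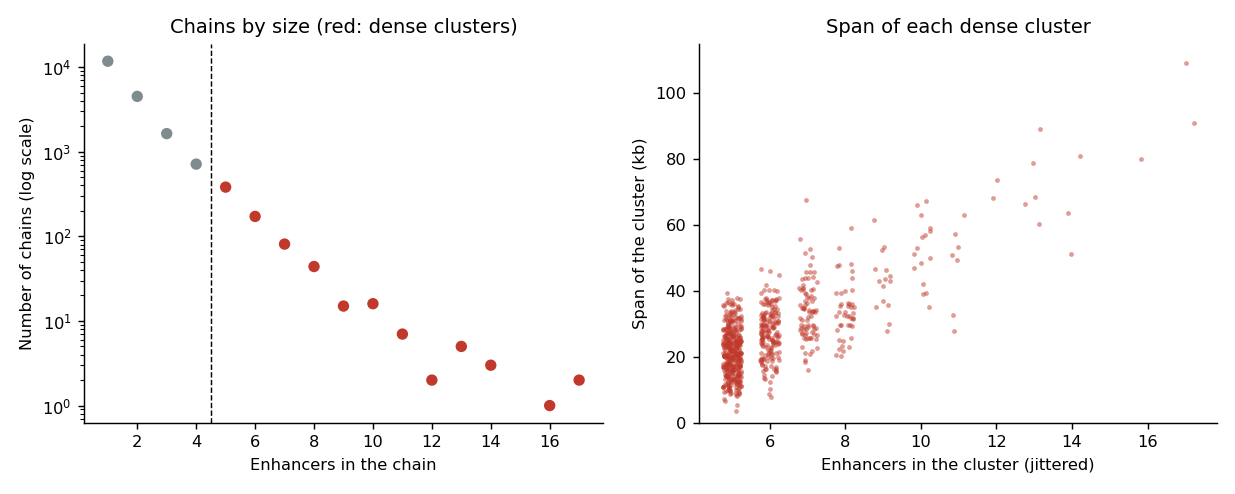
Left, the number of chains (log scale) against the number of enhancers in the chain, with a dashed line at the limit and dense clusters in red. The number falls from 11755 single enhancers to 382 chains of 5 and 2 chains of 17. Right, the span in kb of each of the 730 clusters against its number of enhancers, with points jittered along the x axis. Spans range from 3.52 to 109 kb.

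Within clusters the enhancers were separate, narrow regions. A member had a median width of 416 bp (quartiles 267 and 666), close to the 405 bp of all enhancers, and members covered a median of 11.6% of a cluster's span. The median gap between neighbours was 4.68 kb. However, 933 of 3684 gaps (25.3%, 95% CI 24.0 to 26.8) were under 1 kb. When enhancers under 1 kb apart were first merged, 375 clusters of 5 or more remained, and with gaps of up to 5 or 25 kb the number was 60 or 1533.

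The cluster near Rxra, which encodes the retinoid X receptor alpha, had 17 enhancers over 109 kb, the longest span (chr2:27739736-27848823). It began inside the gene, included 1 of its TSSs and ran beyond its 3′ end. Its centre lay 54.1 kb from the nearest TSS of Rxra, whose widest H3K4me3 peak measured 1692 bp. The second cluster of 17, over 91.1 kb (chr2:117860787-117951875), lay in a stretch without coding genes. Its nearest coding gene was Thbs1, for the matrix protein thrombospondin-1, with a TSS 206 kb from the centre and a widest peak of 1718 bp. A cluster of 16 over 80.1 kb lay wholly inside Adamtsl3, for an ADAMTS-like matrix protein (chr7:82353738-82433845). The nearest TSS of Adamtsl3 was 14.7 kb from the centre, within the span. The span held 0 peaks, and the widest peak of the gene, 2837 bp, lay at another of its TSSs.

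Clusters of 14 were found at 3 loci. On chromosome 9 the 14 enhancers lay over 81.1 kb inside Maml2, a coactivator of Notch signalling (chr9:13483328-13564409). The nearest TSS, 77.1 kb away, belonged to the predicted gene Gm17571, which lies inside Maml2 and had 0 peaks, while Maml2 itself had a peak of 4810 bp. The 14 enhancers at Sntb2, for the dystrophin-associated adaptor beta-2-syntrophin, spanned 63.8 kb (chr8:106924202-106987985) and included its promoter, which had a peak of 2642 bp. At Vcl, for the focal adhesion protein vinculin, 14 enhancers lay over 51.3 kb upstream of the gene (chr14:20863712-20915030), and the peak of Vcl measured 2087 bp.

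**Figure D2:**
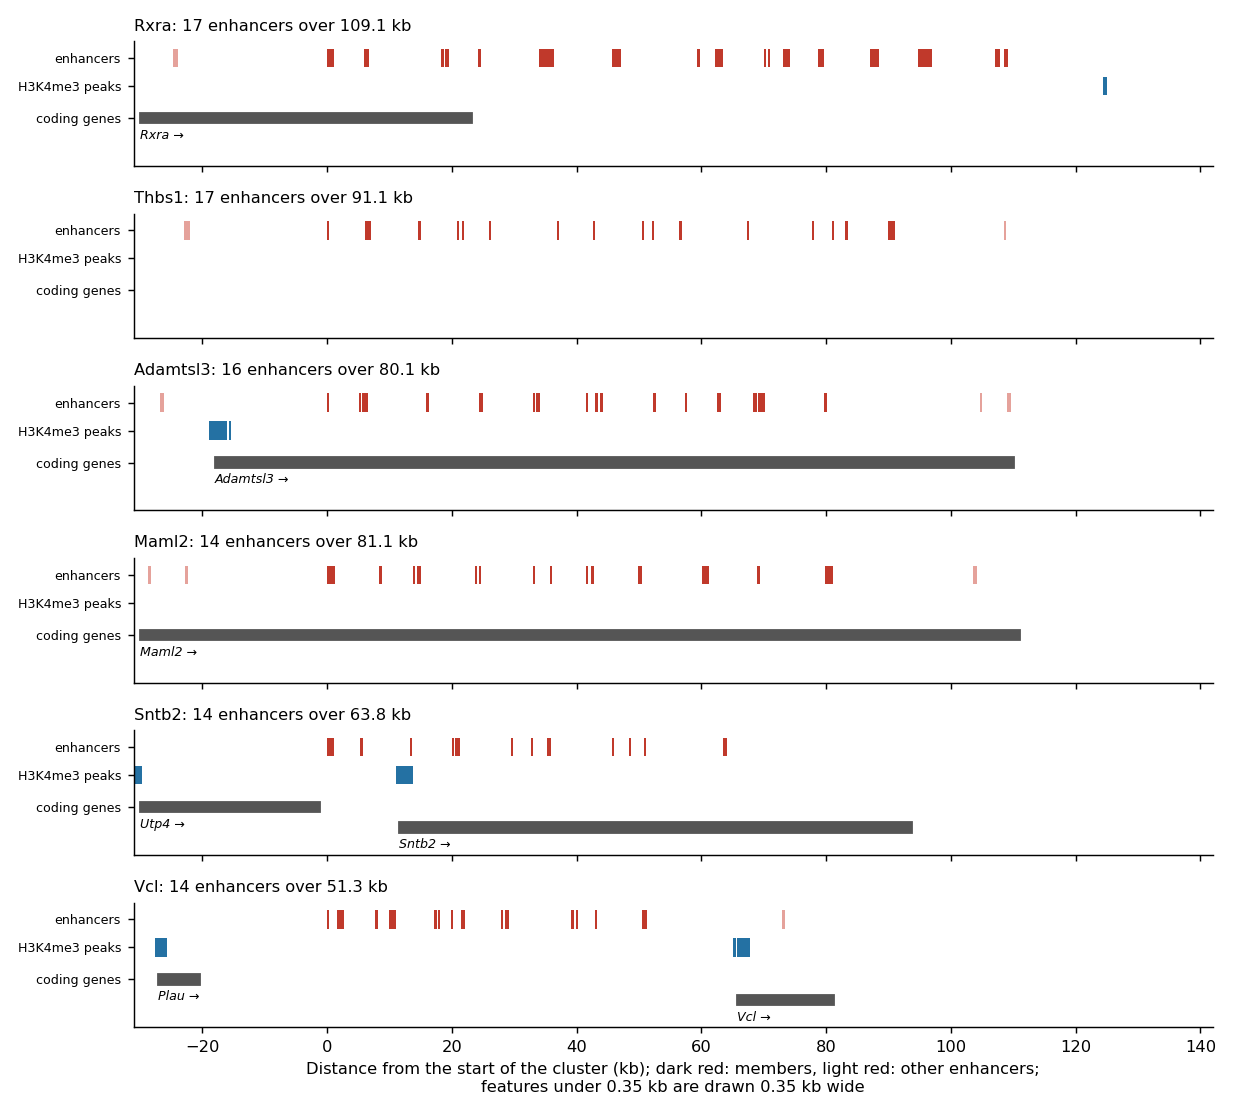
Maps of the 6 clusters with the most enhancers. The x axis is the distance in kb from the first member, and rows show enhancers (dark red in the cluster, light red outside it), H3K4me3 peaks (blue) and protein-coding genes (grey, arrows give the strand). The clusters at Rxra and Vcl lie outside or partly outside genes, those at Adamtsl3 and Maml2 inside 1 gene, and no coding gene lies within 30 kb of the cluster named for Thbs1. Only the Sntb2 cluster holds a peak.

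Clusters of 13 enhancers had 5 different nearest genes. Cited2, a partner of the coactivators CBP and p300, was 157 kb from the centre of its cluster, which spanned 89.1 kb (chr10:17521813-17610898), and its peak measured 1705 bp. The cluster inside St5, for a DENN domain protein, spanned 79.0 kb (chr7:109576302-109655315), was centred 0.583 kb from a TSS of the gene and held 3 peaks. The widest peak of St5 was 1191 bp. Ldlrad4, an inhibitor of TGF-beta signalling, contained its cluster of 68.5 kb on chromosome 18 and had a peak of 2812 bp. The cluster at the 5′ end of Rbpj, the DNA-binding effector of Notch, spanned 66.4 kb (chr5:53457019-53523443), with a peak of 2531 bp at the gene. Cdkn2b, for the cell cycle inhibitor p15, was the nearest gene to a cluster of 60.4 kb (chr4:89427375-89487817) at 147 kb, and its peak measured 1040 bp.

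Both clusters of 12 lay inside genes. Rbfox2, for a splicing regulator, contained 12 enhancers over 73.7 kb (chr15:77161556-77235266) and had a peak of 2085 bp. Palld, for the actin-binding protein palladin, contained 12 over 68.2 kb (chr8:61578823-61647029), with a peak of 1764 bp. Of the 7 clusters of 11, the 2 with the longest span are named here. They lay inside Cdk17, for a cyclin-dependent kinase, and Ccser1, over 63.0 and 57.2 kb, and these genes had peaks of 1714 and 1825 bp.

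The densest clusters were short. In the gene Ss18, for a subunit of the BAF chromatin remodelling complex, 5 enhancers lay within 3.52 kb, or 14.2 per 10 kb, against a median of 2.25 per 10 kb over all clusters. The nearest genes of the next 4 were Tnfaip3, an inhibitor of NF-kB signalling, at 135 kb, Muc13, an epithelial mucin, at 14.7 kb, Gdf6, a growth factor of the BMP family, at 395 kb, and Lacc1 at 157 kb. These had 5.42 to 8.68 kb for 5 or 6 enhancers. Muc13 had 0 peaks, and the widest peaks of the others ranged from 1090 bp at Lacc1 to 1799 bp at Ss18.

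Of 730 clusters, 326 (44.7%, 95% CI 41.1 to 48.3) lay wholly within a protein-coding gene, against 47.5% of chains of 2 to 4 and 50.5% of single enhancers, which are shorter and cross a gene border less easily. By the centre of each enhancer, 2430 of 4414 members (55.1%, 95% CI 53.6 to 56.5) were in a gene body, and over all enhancers the share was 51.8%. The nearest gene was a containing gene in 300 of the 326. Counting the centre alone, 356 clusters (48.8%) were in their nearest gene, 231 (31.6%) upstream and 143 (19.6%) downstream of it. Over all chains these shares were 46.0%, 32.7% and 21.3%, near those of the clusters. The median distance of the centre to the nearest coding TSS was 29.6 kb, with quartiles of 11.8 and 70.9 kb, and over all chains it was 25.7 kb. For 137 clusters (18.8%) and for 21.6% of all chains it was over 100 kb.

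Although the enhancer definition left out windows around TSSs, 199 clusters (27.3%) contained a coding TSS in their span, and 353 (48.4%) a TSS of any gene type. Over all chains, most of which are single enhancers with a short span, these shares were 6.70% and 10.98%. An H3K4me3 peak lay in the span of 190 clusters (26.0%, 95% CI 23.0 to 29.3), against 20.2% of chains of 4 and 11.7% of all chains. In 45 of the 730 (6.16%) a peak but no GENCODE TSS was in the span, and over all chains this share was 7.25%. These 2 shares have unlike bases. Only 377 clusters (51.6%) had no TSS in the span, against 17225 of the 19350 chains (89.0%), of which 1402 held a peak. A peak overlapped 239 of 4414 members (5.41%, 95% CI 4.79 to 6.12), while the share was 7.52% over all enhancers, 6.85% in chains of 2 to 4 and 9.27% among single enhancers. Of the members, 281 (6.37%) were centred within 1 kb of a GENCODE TSS, and without these the share on a peak was 3.90%.

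H3K4me3 at the genes was compared next. The 730 clusters had 642 different nearest genes, since 73 genes were nearest to 2 or more. Of the 642, 553 (86.1%, 95% CI 83.3 to 88.6) had a peak within 1 kb of a TSS, and over all 21938 protein-coding genes the share was 59.1%. It was 48.4% for genes nearest to no chain, 75.2% where single enhancers were the most and 78.6% where chains of 2 to 4 were. At the limit, it was 82.1% for chains of 4 and 85.6% for clusters of 5, with intervals that overlap. Of 298 genes that contained a cluster, 279 (93.6%, 95% CI 90.3 to 95.9) had a peak. These genes were long, with medians of 177.7 kb and 6 TSSs. Among genes not nearest to a cluster, the share was 78.7% at 100 to 200 kb and 80.9% with 5 to 7 TSSs.

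Peaks at these genes were also wider. The widest peak of a nearest gene had a median of 1695 bp (95% CI 1585 to 1790) with quartiles of 1222 and 2301 bp, whereas it was 1255 bp (95% CI 1242 to 1269) over all genes with a peak. The median was 1177 bp for genes nearest to no chain, 1258 bp for single enhancers, 1365 bp for chains of 2 to 4, and 1458 bp for chains of 4 alone. It was 1649 bp for clusters of 5, 1717 bp for 6 or 7 and 1706 bp for 8 or more, and the intervals of these 3 overlap. At the limit, the interval for chains of 4 (1392 to 1602 bp) also overlaps that for clusters of 5 (1543 to 1819 bp). Peaks of at least 2 kb were found at 196 of the 553 genes (35.4%), at 28.6% of genes with a peak near a chain of 4 at most, and at 16% of all genes with a peak. The distance to the cluster went with little difference, as the median was 1668 bp where the closest cluster was centred within 20 kb, 1755 bp at 20 to 100 kb and 1614 bp beyond.

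**Figure D3:**
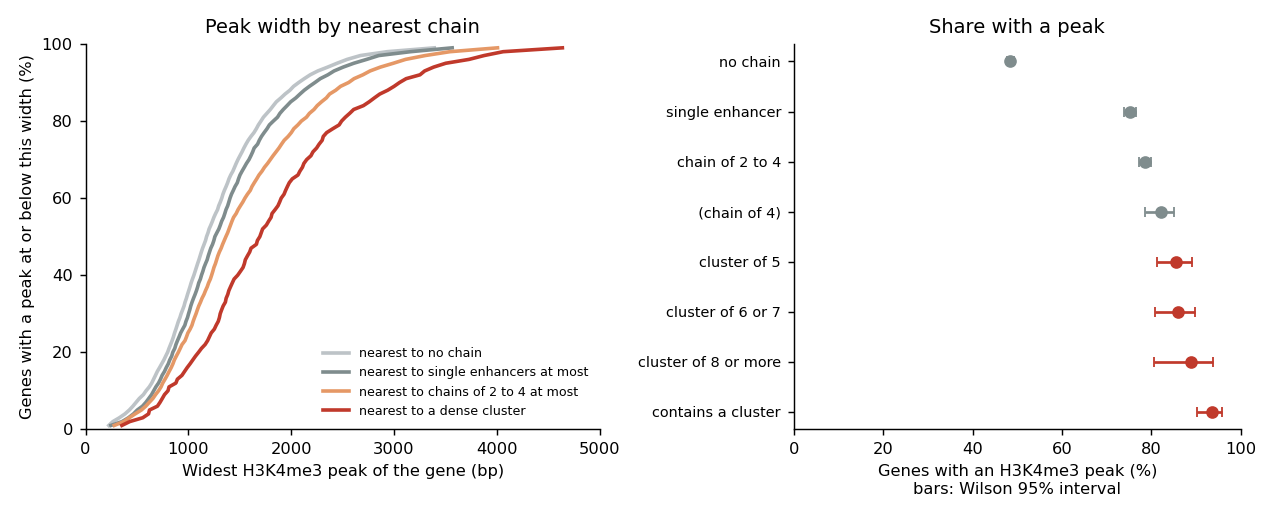
Left, cumulative distribution of the widest H3K4me3 peak in bp at protein-coding genes with a peak, by the largest chain to which the gene is nearest, drawn from the 1st to the 99th percentile. The curve for dense clusters lies to the right of the others, with a median of 1695 bp. Right, the share of genes with a peak in each class with Wilson 95% intervals. It rises from 48.4% at genes near no chain to 88.8% near clusters of 8 or more, and is 93.6% at genes that contain a cluster.

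Genes near clusters also differed from coding genes as a whole in length, TSS number and promoter sequence. Their median length was 86.9 kb against 17.4 kb over all coding genes, and they had a median of 5 TSSs against 3. The median number of CpGs was 23 against 15, each gene taking its RefSeq promoter window with the most CpGs. A gene with more windows has more from which this highest count is taken. Genes nearest to a chain of 4 at most had medians of 62.4 kb, 5 TSSs and 22 CpGs. In TSSs and CpGs they were thus near the genes at clusters. Promoter windows were matched for 487 of the 642 nearest genes and 16539 of all coding genes, and the values on CpGs leave out the others. A gene with more TSSs has more places where a peak can be counted. Nearest genes had the wider median peak in each of 5 classes of gene length, by 268 to 533 bp, in each of 4 classes of TSS number, by 325 to 679 bp, and in each of 4 classes of promoter CpGs, by 269.5 to 739.5 bp. Among genes of 200 kb or longer, for example, the medians were 1825 and 1292 bp. The share with a peak was higher for nearest genes in all 13 classes. These classes were chosen after the widths were seen, and the part of gene length, TSS number and CpGs in the widths was not tested.

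The 10 widest peaks at nearest or containing genes ranged from 4424 to 7130 bp. Most of these genes had a cluster of 5 to 7 enhancers, the size of 87.0% of all clusters. Smad7, an inhibitor of TGF-beta signalling, had the widest at 7130 bp and a cluster of 5 centred 116 kb away. Nrp2, for the receptor neuropilin-2, had 5363 bp and 5 enhancers, and Nr2f2, for the nuclear receptor COUP-TFII, 5169 bp and 7. Igf1r, the receptor for insulin-like growth factor 1, contained a cluster of 6 and had 5106 bp. Then came Samd4, for an RNA-binding protein (4941 bp), and Maml2 (4810 bp), which contained 2 clusters with 23 enhancers. The scaffold gene Ahnak (4482 bp), the adhesion receptor gene Adgrl2 (4477 bp), the Notch ligand gene Jag1 (4463 bp) and Bcor, for a corepressor on the X chromosome (4424 bp), completed the 10.

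No peak was found at the nearest gene of 96 clusters. In 7 of these a containing gene had one, and for the 96 the closest coding gene with a peak was at a median of 100.0 kb (quartiles 39.2 and 190 kb). The 3 largest were the Maml2 cluster, with Gm17571 as the nearest gene, and clusters of 10 enhancers at Slc14a2 and Tprg. Slc14a2, for a urea transporter, contained its cluster of 56.97 kb on chromosome 18. The cluster near Tprg spanned 50.0 kb on chromosome 16, 115.1 kb from the TSS. A further cluster of 10, over 51.2 kb (chr14:53598702-53649896), lay in the T cell receptor alpha locus, and its nearest coding gene in the annotation, Dad1, was 630 kb away. It was singled out after its position was seen.

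To describe the genes by function, 18 gene lists were used. Over all coding genes, 672 of 21938 (3.06%) were nearest to or contained a dense cluster. The share grew with gene length, from 1.19% under 20 kb to 15.5% at 200 kb or longer, and the lists differed in length. As a check of the labelled cell type, 9 of 10 fibroblast markers had a peak, as against 2 of 15 haematopoietic, 4 of 15 epithelial, 0 of 12 liver, 1 of 10 skeletal muscle and 1 of 11 pluripotency genes. Neuronal genes had one in 9 of 15 cases and endothelial genes in 5 of 13. Over all coding genes the share with a peak was 59.1%, near that of the neuronal genes. Each of these lists holds 15 genes or fewer. The share also went with gene length. Among genes not nearest to a cluster it was 46.0% under 20 kb and 77.8% at 200 kb or longer.

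Matrix genes were at clusters in 12 of 38 cases (31.6%, 95% CI 19.1 to 47.5), with a median gene length of 46.9 kb. Fn1, for fibronectin, had clusters of 10 and 6 enhancers at 276 and 37.6 kb from its TSS but a widest peak of only 750 bp. Col6a3, for a collagen VI chain, had a cluster of 9 at 27.8 kb and a peak of 3765 bp. Tnc, for tenascin-C, had clusters of 7 and 5 with a peak of 2761 bp, and Fbn1, for fibrillin-1, a cluster of 7 with 2466 bp. Col4a1 and Col4a2, which share a promoter region, had 1 cluster of 5 that lay inside Col4a2, and both were assigned the same peak of 3269 bp. The others were Thbs1, Thbs2, Has2, Lox, Postn and Col3a1, and the peaks of Postn (419 bp) and Col3a1 (382 bp) were the narrowest of the 12. Col3a1 and Fn1 were also the 2 of 10 fibroblast markers at clusters. The cluster of 6 assigned to Col3a1 was centred 280 kb from its TSS, so this assignment rests on distance.

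Among adhesion and actin genes, 12 of 40 (30.0%, 95% CI 18.1 to 45.4) were at clusters, and 7 of the 12 contained one. Pdlim5 and Cald1, for an actin-associated PDZ-LIM protein and caldesmon, each contained 2 clusters, with 13 and 12 enhancers and peaks of 1681 and 2312 bp. Integrin genes were Itga11 (6 enhancers, peak 2462 bp), Itgb3 (6, 1531 bp) and Itgb5 (7, 2018 bp). Vcl, Palld, Lpp, Tns1, Tpm1 and Cd44 were also at clusters.

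The TGF-beta and SMAD list had 7 of 24 (29.2%, 95% CI 14.9 to 49.2). The ligand gene Tgfb2 was nearest to 3 clusters with 18 enhancers and had a peak of 2758 bp, and the receptor gene Tgfbr2 was nearest to clusters of 6 and 5 with a peak of 2354 bp. Ltbp1, for a protein that binds latent TGF-beta, contained clusters of 10 and 9 and had a peak of 2232 bp. Inhba, for an activin subunit, had clusters of 8 and 6 at 653 and 696 kb, so this assignment rests on distance in a stretch with few coding genes. The BMP antagonist Grem1 and the BMP regulator Bmper had 1 cluster each, as did Smad7.

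Growth factor signalling genes were at clusters in 8 of 31 cases (25.8%, 95% CI 13.7 to 43.2). The receptor genes were Egfr (9 enhancers inside the gene, peak 1760 bp), Met (8, 1706 bp), Fgfr2 (7, 3542 bp), Igf1r and Lifr (6, 1914 bp). A further cluster of 5 lay in the annotated body of Fgfr2, which is 2961 kb long, but 395 kb from its TSS. That cluster also lay inside Fam53b, and Fgfr2 was not its nearest gene. The ligand genes Fgf2 and Fgf7 had clusters of 5 and 6 with peaks of 1932 and 2312 bp. The feedback inhibitor gene Spry2 had a cluster of 5 at 226 kb and a peak of 2747 bp.

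Transcription factors formed several lists. Of 32 mesenchymal factors 5 (15.6%, 95% CI 6.86 to 31.8) were at clusters, among them Prrx1 (8 enhancers, peak 3018 bp), Foxp1 (6, 4060 bp), Klf4 (6 and 5, 3073 bp) and Nfib (5, 2969 bp). Of the 4 genes of the RUNX list, 1 was at clusters. This was Runx2, a factor of bone-forming cells, which contained 2 clusters of 7 and had a peak of 3386 bp. In the YAP and TEAD pathway, 3 of 17 were at clusters. Tead1 contained clusters of 6 and 5, Wwtr1, for the coactivator TAZ, contained 1 of 7, and the target Ccn2 was nearest to 2 of 5. Of the 12 AP-1 genes, Fosb was nearest to a cluster of 8 (peak 1596 bp).

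No cluster was assigned to any of the 15 haematopoietic, 15 neuronal, 12 liver, 10 skeletal muscle and 11 pluripotency genes. Each of these lists is small, and their Wilson intervals, which reach 20.4 to 27.8%, contain the 3.06% of all coding genes. The liver, skeletal muscle and pluripotency genes were also short, with medians of 10.2, 4.75 and 7.145 kb. None of 36 ribosomal protein genes, which are short, with a median of 3.68 kb, had a cluster, and all 36 had a peak with a median of 1853 bp. The 14 genes for H3K4 methyltransferase subunits had 0 clusters and a median peak of 2291 bp. Of the 15 epithelial genes, Cldn4 was nearest to a cluster of 6 and had 0 peaks. Of the 13 endothelial genes, Flt1 (peak 1942 bp), Erg (1716 bp) and Cdh5 (0 peaks) were nearest to clusters of 5, at 57.5, 18.2 and 284 kb.

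**Figure D4:**
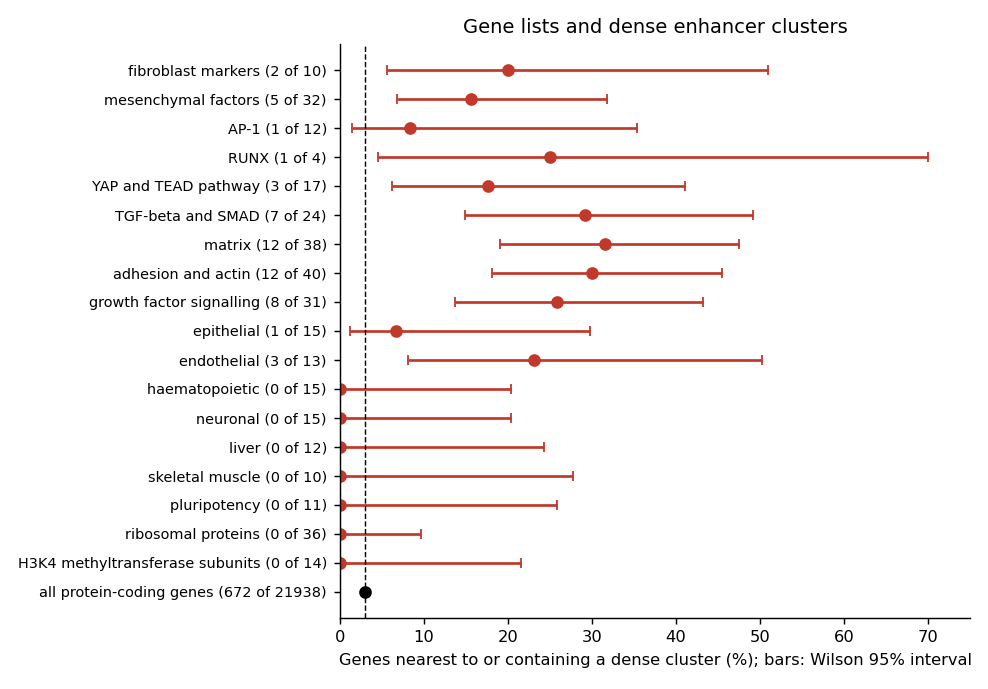
Share of the genes in each list that are nearest to or contain a dense cluster, with Wilson 95% intervals. The black point and the dashed line give the share of 3.06% over all 21938 coding genes. Matrix, adhesion and actin, TGF-beta and SMAD, and growth factor signalling genes lie at 25.8 to 31.6%, and endothelial genes at 23.1%. In 7 lists 0 genes have a cluster, and the intervals of these 7 contain 3.06%.

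Within the lists the genes with a cluster had the wider median peak in some cases and the narrower in others. In the matrix list the median was 1848 bp for the 12 genes with a cluster and 2380 bp for the 21 others with a peak. It was 2052.5 and 2549 bp in the adhesion and actin list, 2122 and 2520 bp in the growth factor list, 2349 and 2166 bp in the TGF-beta and SMAD list, and 3018 and 2443 bp among mesenchymal factors. These medians rest on 5 to 28 genes each. In the fibroblast marker list they were 566 bp for the 2 genes with a cluster and 2520 bp for the 7 others, in the YAP and TEAD list 2192 and 2295 bp, and in the endothelial list 1829 and 435 bp.

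Several genes were nearest to many clusters. Thbs1 had 4 with 33 enhancers, which followed each other over 242 kb before the gene (chr2:117860787-118102770). On the same chromosome Rasgrp1, for an exchange factor of RAS proteins, had 4 clusters with 20 enhancers and a peak of 883 bp, and on chromosome 9 Sorl1, for a sorting receptor, had 4 with 26 and a peak of 1098 bp. Myc, the growth-promoting transcription factor, was nearest to 3 clusters with 16 enhancers, 207 to 340 kb from its TSS, and had a peak of 4380 bp. On chromosome 4, 4 clusters with 26 enhancers lay over 193 kb between Ifne and Mtap (chr4:88931171-89124305). The first of these held 9 peaks, up to 1385 bp wide, but no coding TSS, and Ifne, for interferon epsilon, had 0 peaks. Beyond Mtap, for an enzyme of methionine salvage with a peak of 1833 bp, lay 2 more clusters with 24 enhancers, nearest to Cdkn2b. These loci were singled out after the number of clusters per gene was seen.

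Dnm3, for the membrane-remodelling protein dynamin-3, contained 4 clusters with 27 enhancers, more clusters than any other gene contained, although its own widest peak measured 1091 bp. A cluster of 7 (chr1:162180414-162226186) held the antisense gene Dnm3os with the hairpins of miR-199a and miR-214. It held 2 peaks of 661 and 591 bp, both within 1 kb of a TSS of Dnm3os, and the first covered the miR-199a hairpin. MicroRNAs pair with mRNAs through the seed, bases 2 to 8. The mature sequences in RefSeq (GRCm38.p6) are given 5′ to 3′, with the seed in capitals.
miR-199a-5p: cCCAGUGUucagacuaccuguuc
miR-199a-3p: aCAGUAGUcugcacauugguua
miR-214-5p: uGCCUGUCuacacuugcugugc
miR-214-3p: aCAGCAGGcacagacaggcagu
The 4 seeds differ from each other. In all, 19 of 2202 miRNA genes (0.863%) lay wholly in a cluster, a share near the 0.732% of the chromosomes that the clusters span, and 8 of the 19 had a mature sequence in the table used. They included Mir155, in a cluster of 5 with Mrpl39 as the nearest coding gene, Mir26b and Mir365-2. The miRNA genes were chosen after the clusters were seen.

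The sequences of the members were compared with those of other enhancers in windows of 300 bp at the centre. Motifs were searched as plain letters on both strands, so a match is not a bound site. No motif contains another, although matches to different motifs can share bases. AP-1 (TGAGTCA) was found in 709 of 4414 members (16.1%, 95% CI 15.0 to 17.2), and over all enhancers the share was 17.2%. Single enhancers were at 18.6% (95% CI 17.9 to 19.3), and 300 bp windows at 32851 RefSeq promoters at 5.20%. In whole enhancers rather than windows, 168 clusters (23.0%) had no member with AP-1, and 0 had it in every member. In the Rxra cluster 7 of 17 members held it, in that of Rbfox2 5 of 12, and in those of Ldlrad4 and Ccser1 0 of 13 and 0 of 11.

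Other motifs separated enhancers from promoters but hardly clusters from other enhancers. RUNX (TGTGGTT) was in 10.1% of members (95% CI 9.27 to 11.1) and in 8.52% of single enhancers (8.03 to 9.04), the 1 motif among those searched for which the interval of members lay above those of both other classes. The TEAD motif was in 24.0% and 22.8%, the NFI motif TTGGCA in 19.8% and 19.8%, and the E-box CAGATG in 26.0% and 24.4%. In promoters the shares were 5.27% for RUNX, 14.7% for TEAD, 14.1% for NFI and 17.2% for the E-box. EGR1 (GTGGGCG) and ETS (CCGGAAG) motifs were in 1.72% and 1.36% of members but in 7.97% and 8.86% of promoters, and the motif TGACGTCA of ATF and CREB proteins was in 0.272% and 1.79%. The control TAGTGCA, with the letters of AP-1 in another order, was in 2.02% of members and 1.99% of single enhancers. Members had a median GC of 47.7%, single enhancers of 48.7% and promoters of 52.7%, and the part of base composition in these shares was not tested.

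**Figure D5:**
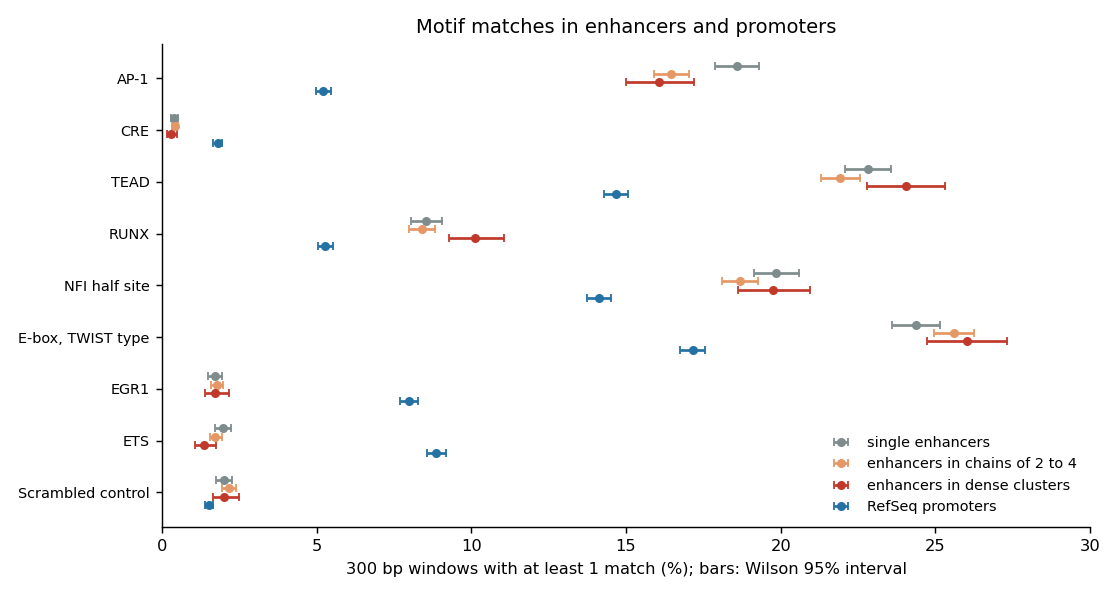
Share of 300 bp windows with at least 1 match to each motif, with Wilson 95% intervals, for single enhancers, enhancers in chains of 2 to 4, members of dense clusters and RefSeq promoters. AP-1 is at 16.1% in members and 5.20% in promoters, while EGR1 and ETS are higher in promoters.

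Clusters were spread over all autosomes. They were most dense on chromosome 15, with 42 clusters or 4.04 per 10 Mb, and least on chromosome 12 with 1.83, and the share of a chromosome's enhancers in clusters ranged from 9.66% to 17.5% among autosomes. Chromosome 15 also had the most enhancers of any kind per Mb, 17.3. Of its enhancers 13.5% were in clusters, near the 13.4% of all enhancers. Chromosome X had 3 clusters with 17 of its 500 enhancers (3.40%). It also had fewer enhancers of any kind, 2.92 per Mb, whereas autosomes had 10.8 to 17.3 per Mb.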

How the data were processed

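H3K4me3 ChIP-seq of iMEF cells was described from 2 deposited lists. Per the labels and the study's methods, the authors aligned reads with BWA to mm10, filtered them with SAMtools, merged replicates with Picard and called peaks with MACS2. Versions are not given in the sources used here. Putative enhancers were, in their definition, regions of control cells positive for ATAC signal and both H3K4me1 and H3K27ac, at least 1 kb from known TSSs. The deposited values are positions (chromosome, start and end). There is no count, score or column per sample, and 0 such columns were left out.

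The list held 25431 peaks, of which 25357 on chromosomes 1 to 19 and X or Y were used, and 32965 enhancers. The study reports a slightly lower number of putative enhancers. Peak starts were taken to count from 0 and enhancer starts from 1, judged from the widths. A wrong choice moves a start by 1 base. No region passed the end of a chromosome of GRCm38.p6.

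Enhancers were chained over gaps of at most 12500 bp and chains of at least 5 kept. The nearest gene was the protein-coding gene of GENCODE M21 with the TSS closest to the centre of a cluster, a containing gene held the whole cluster, and a gene's peaks had a base within 1 kb of any of its TSSs. An overlap needed 1 shared base. Motifs were counted in windows of 300 bp. Shares carry Wilson 95% intervals and medians order-statistic intervals, which cover counting error only. Regions and genes are not replicates and no test was made. The functions differed from brute-force versions in 0 of 2300 queries on simulated data. Python 3.11.15, NumPy 2.4.6, SciPy 1.17.1 and Matplotlib 3.10.9 were used.

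The clusters and gene lists were chosen with earlier results of these data known. Named are the genes of the 15 clusters with the most enhancers, the 5 longest and the 5 densest, the 10 with the widest peaks, list members at clusters, and the 3 largest clusters whose nearest gene had no peak. Others are said to be chosen later. Alternatives were other gaps, sizes, enhancer lists, gene sets, peak rules and motif windows. Some list members and 1 sequence are not reported here.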

Additional observations from a re-analysis of the deposited data

How the results depend on the processing

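No paired analysis was possible because neither list has a value per sample, and no result comes from a test. Of 47 alternative values for 8 results, 23 stayed within 1.5 times the main count or within the 95% interval of the main value, and 24 moved. The number of clusters, 730, was 60 with a largest gap of 5 kb, 1533 with 25 kb, 1444 with at least 4 enhancers, 36 with at least 10, and 375 with enhancers under 1 kb apart merged first. The share of enhancers in clusters, 13.4%, was 8.78% with a gap of 10 kb, 33.8% with 25 kb, 1.27% with at least 10 enhancers, 7.78% with merged enhancers and 11.7% without enhancers near a GENCODE TSS. The median span was 21359, 48042, 57714 and 32031 bp with a gap of 10 kb, one of 25 kb, at least 10 enhancers and merged enhancers. The share of clusters inside a gene was 49.0% with all gene types, 33.5% with a gap of 25 kb and 50.0% with at least 10 enhancers. These values follow from the definitions changed.

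The share of nearest genes with a peak, 86.1%, was 93.6% for containing genes and 91.4% with at least 10 enhancers. The median widest peak rose to 2258 bp with peaks under 1 kb apart merged, and over all coding genes it then rose to 1628 bp. With RefSeq genes the 2 medians were 1711 and 1258 bp. The share of members on a peak was 3.71% with at least 50% of the enhancer covered, 2.76% with peaks of at least 500 bp and 3.90% without enhancers near a TSS. The share with AP-1 was 22.8% in whole enhancers. The study's methods set a minimum of raw reads for ChIP samples, but the lists give neither depth nor signal, so a missed weak enhancer or peak, which would break a chain or narrow a peak, cannot be told apart from an absent one.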
